A study of Mus musculus with 24 samples.

Results

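The 3 libraries of Nlrp14 knockout (KO) 2-cell embryos were compared with the 3 libraries of KO zygotes at PN5, the last pronuclear stage before the first cleavage. These 6 libraries were chosen by their labels from 24 libraries of KO and wild-type (WT) mouse oocytes and embryos at 4 stages, with 3 libraries per group and 5 oocytes or embryos in each. The same interval in WT, 3 2-cell against 3 PN5 libraries, served as the point of comparison. The genotype was given by the labels as Nlrp14 knockout or WT for the animals from which material was collected. The genotype of the sires, the strain, the age of the females and the hours of embryo collection are not given in the labels. The labels call the libraries biological replicates, and do not say whether these came from separate females. All levels are FPKM, a fragment density per length of transcript and per mapped library size, and all changes are differences of log2(FPKM + 1), 2-cell minus PN5. FPKM is a share of each library, so that less of a transcript and more of all other RNA cannot be told apart, and neither can fewer responding embryos and less RNA in each.

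In the mouse, a first minor wave of transcription begins in the zygote, and the major wave of embryonic genome activation falls in the 2-cell stage. Over the same interval the egg's own messages are removed, first by decay machinery already stored in the egg and then by factors that the embryo makes itself. Transcripts that mark the 2-cell stage include the Zscan4 cluster, and messages for ribosome building follow in the major wave. NLRP14 is an oocyte member of the NLRP protein family, whose best known relatives belong to the subcortical maternal complex, a protein assembly under the egg membrane that embryos need for their first divisions. The study's title names infertility of the females and early arrest of their embryos.

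Estimated depth was 7.79 to 8.22 M fragments in KO 2-cell libraries and 9.70 to 11.4 M in KO PN5 libraries. Between 11736 and 12037 genes reached 1 FPKM in KO 2-cell libraries, against 8828 to 9279 in KO PN5 libraries. Transcripts of the mitochondrial genome took 21.7 to 22.9% of summed FPKM in KO 2-cell libraries and 9.17 to 11.6% in KO PN5 libraries. The slope of log level on log transcript length was -0.111 to -0.0742 in KO 2-cell and 0.175 to 0.187 in KO PN5 libraries, so short transcripts gained with stage. In WT the slope was -0.107 to -0.0318 at the 2-cell stage. At PN5 it was 0.003, 0.0963 and 0.153 in WT replicates 1, 2 and 3, all below the KO PN5 libraries. Transcript length thus also enters the difference of the changes, KO minus WT. With a length trend removed, 5174 genes were called higher and 2630 lower in KO. The difference was then called higher for 2134 genes and lower for 4787, against 2073 and 4787 as deposited. One WT PN5 library, replicate 1, stood apart, with 21.8% mitochondrial signal against 8.30 and 11.8% in the other WT PN5 libraries. Results that rest on WT are given without it where its absence changes a call named here. Nlrp14 itself stood at 25.9, 36.2 and 17.2 FPKM in KO 2-cell libraries and 6.17, 8.48 and 5.75 FPKM in KO PN5 libraries, against 90.2, 129 and 98.99 FPKM in WT 2-cell and 169, 243 and 217 FPKM in WT PN5 libraries. Every KO library lay below every WT library at its stage. Within KO the remaining signal was higher at the 2-cell stage (change 1.77, SE 0.27, adjusted p = 7.18e-04), whereas in WT it was lower (-0.98, adjusted p = 0.0073). The deleted segment of the gene is not given in the sources used here, so the level of the rest of the transcript is no full check of the labels. The annotated gene lies at chr7:107166990-107198102 on the plus strand of GRCm38.

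Between PN5 and the 2-cell stage the KO transcriptome changed in most genes that could be tested. Of 11450 genes with at least 1 FPKM in 3 of the 6 libraries, limma called 5020 higher (43.8%) and 3066 lower (26.8%) at the 2-cell stage, at a Benjamini-Hochberg adjusted p under 0.05. At 2-fold or more, a change of at least 1, these were 3641 (31.8%) and 1803 (15.7%). A gene that passed the filter only because it was high in 1 stage had to differ, so the shares describe the genes tested and not the genome. The balance of the directions depended on the scale. Higher genes made 62.1% of calls on FPKM as deposited, 55.5% after median-of-ratios scaling and 44.6% after conversion to TPM, in which every library has the same sum, while the median change of all tested genes was 0.31, 0.12 and -0.20 on these scales. The calls of 3620 higher and 3066 lower genes held on all 3, and with a change of at least 1 in size on all 3 those of 2790 and 1803. In WT, 6429 of 13398 tested genes were higher (48.0%) and 1989 lower (14.8%), together 62.8%, and higher genes made 76.4% of calls as deposited and 63.4% after median-of-ratios scaling.

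**Figure D1:**
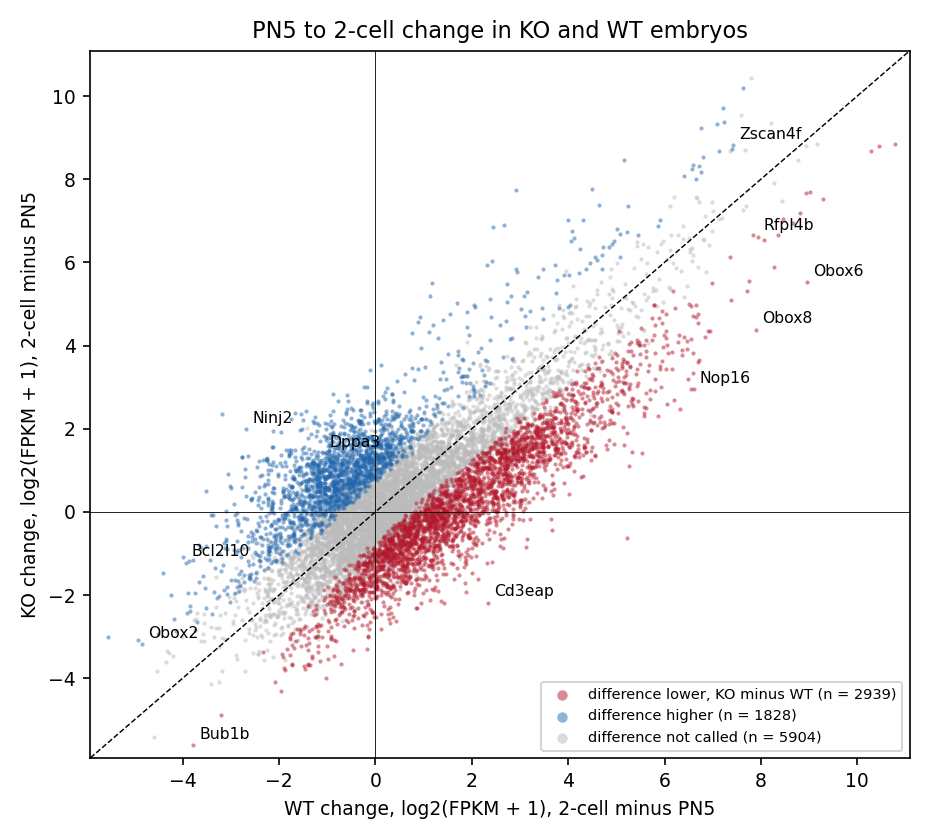
Each point is a gene tested in both genotypes, with its KO change on the vertical axis and its WT change on the horizontal axis, both as log2(FPKM + 1) at 2-cell minus PN5; colours give the call on the difference of the changes and the dashed line marks equal change. Genes called lower in the difference lie below the line and outnumber those called higher, and Zscan4f lies above the line while Obox6, Obox8 and Nop16 lie below it.

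The largest rises in KO were led by transcripts that mark the 2-cell stage. The 10 genes with the largest change, among named genes whose 3 and 3 libraries did not overlap and which reached a mean of 5 FPKM, were Zscan4f, Zscan4d, Zscan4c, Pramef25, Mt1, Zscan4b, Usp17lb, Rfpl4b, D13Ertd608e and Prps1. The Zscan4 genes encode zinc finger proteins of the 2-cell embryo that are known for their part in telomere maintenance in mouse embryonic stem cells. Zscan4f stood at 799, 448 and 462 FPKM in KO 2-cell libraries, against 0.149, 0.2195 and 0.305 FPKM in KO PN5 libraries (change 8.81, SE 0.23, adjusted p = 2.15e-07). The lowest 2-cell library stood far above the highest PN5 library. In WT the same gene stood at 446, 234 and 355 FPKM at the 2-cell stage and 2.21, 0.787 and 0.318 FPKM at PN5. The KO change exceeded the WT change by 1.40 (SE 0.48, adjusted p = 0.031), and without WT PN5 replicate 1 that difference was 1.05 and not called. Zscan4d stood at 515, 432 and 436 FPKM in KO 2-cell and 0.579, 0.272 and 0.767 FPKM in KO PN5 libraries. Its change exceeded that of WT by 1.68 (adjusted p = 0.003), and the 2 genotypes did not overlap at the 2-cell stage, where WT libraries held 327, 209.8 and 273 FPKM. Members of this cluster are near-identical copies, so the division of fragments among them is uncertain.

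Other genes among the 10 rose less in KO than in WT. Rfpl4b, a RING finger protein gene, was listed at 0 in all PN5 libraries of both genotypes and stood at 123, 82.5 and 90.8 FPKM in KO 2-cell libraries, against 239, 255 and 237 FPKM in WT 2-cell libraries. The WT libraries lay above all KO libraries (difference of the changes -1.31, SE 0.26, adjusted p = 0.0018). Usp17lb, one of a family of deubiquitinase genes, stood at 136, 93.7 and 118 FPKM in KO 2-cell and 0.177, 0.139 and 0.138 FPKM in KO PN5 libraries, against 322, 249 and 207 FPKM in WT 2-cell libraries, and fell short of the WT change by a difference of -1.19 (adjusted p = 0.0069). Prps1, which makes the ribose donor for nucleotide synthesis, reached 182, 82.7 and 140.4 FPKM in KO 2-cell libraries, against 0.443, 0.521 and 0.235 FPKM at PN5. WT 2-cell libraries held 514, 486 and 488 FPKM, all above the KO libraries, with a difference of -1.52 that was not called after median-of-ratios scaling (-1.16) or in TPM (-1.61). For Pramef25, Mt1 and D13Ertd608e the difference of the changes was 0.22, -0.09 and -0.24 and not called, except that Mt1 was called short without WT PN5 replicate 1 (-0.98). Mt1 encodes a metal-binding metallothionein and stood at 189.8, 126 and 167 FPKM in KO 2-cell and 0.194, 0.409 and 0.0452 FPKM in KO PN5 libraries.

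The bases before the start sites of 6 genes are shown because they stand at the 2 ends of the KO response, 4 among the largest rises and 2, Stmn3 and Cst7, far short of their WT rise. Each is the 120 bases just upstream of the RefSeq start in GRCm38.p6, read 5′ to 3′ on the gene's strand, and capitals mark the letters TATAAA and CCAAT on either strand, with CCAAT read as ATTGG on the opposite one. Zscan4f lies at chr7:11397795-11397914, plus strand, Zscan4d at chr7:11166149-11166268, minus strand, Usp17lb at chr7:104842584-104842703, minus strand, Rfpl4b at chr10:38821780-38821899, minus strand, Stmn3 at chr2:181314501-181314620, minus strand and Cst7 at chr2:150570295-150570414, plus strand.
Zscan4f: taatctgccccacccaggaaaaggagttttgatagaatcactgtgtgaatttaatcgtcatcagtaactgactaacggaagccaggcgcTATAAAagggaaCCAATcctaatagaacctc
Zscan4d: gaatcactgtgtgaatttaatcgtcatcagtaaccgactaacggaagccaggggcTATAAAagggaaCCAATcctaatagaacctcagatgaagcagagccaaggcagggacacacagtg
Usp17lb: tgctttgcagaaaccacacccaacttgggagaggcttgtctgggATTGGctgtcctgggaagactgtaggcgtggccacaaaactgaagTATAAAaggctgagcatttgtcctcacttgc
Rfpl4b: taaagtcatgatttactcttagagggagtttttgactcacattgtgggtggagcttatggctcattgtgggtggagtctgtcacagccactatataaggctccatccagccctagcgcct
Stmn3: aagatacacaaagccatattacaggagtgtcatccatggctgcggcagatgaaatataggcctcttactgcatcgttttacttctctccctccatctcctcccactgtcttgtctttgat
Cst7: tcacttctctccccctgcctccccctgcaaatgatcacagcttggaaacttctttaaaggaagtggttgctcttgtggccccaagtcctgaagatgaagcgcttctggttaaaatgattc
The Zscan4 windows share both sets of letters in the same order and close together, and Usp17lb holds both in the other order. Rfpl4b, Stmn3 and Cst7 hold neither, which says only that these letters are not in these windows. Of 32851 mouse promoters in the same table, 6.34% hold TATAAA and 21.3% hold CCAAT in this window. The windows shown are a selection. Mt1 and Prps1, also among the largest rises, hold no TATAAA. Among the largest falls in KO, CCAAT is also in the windows of Bub1b, Txnip, Nup93, Zswim3, Tubb3 and Csad, and not in those of Edrf1 and Copb1. A match is a description of letters and not a site of binding.

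Transcripts that mark the 2-cell stage were higher in KO wherever they passed the filter. Of 38 symbols in that list, which was assembled with earlier results of these data known, 34 genes passed the filter in KO. All 34 were called higher, against 43.8% of all tested genes, with a median change of 5.29 against 0.31. In the list, 13 genes were listed at 0 in every KO PN5 library. Members near 0 at PN5 could pass only through the 2-cell libraries, so for them a call of higher was largely set by the filter. In WT 33 of 36 tested were higher, with a median of 5.20. Summed over the list, levels ran from 3261 to 5108 FPKM in KO 2-cell libraries and from 88.9 to 141 FPKM in KO PN5 libraries, against 3464 to 4342 FPKM in WT 2-cell libraries, so the genotypes overlapped at the 2-cell stage. After median-of-ratios scaling 33 and after conversion to TPM 32 members were called higher. The members did not keep to 1 side of WT: the KO change was called larger for 13 and smaller for 9 of 36, in a test that called 13.8% of all genes larger and 31.9% smaller, together 45.8% (10 and 10 without WT PN5 replicate 1). The larger ones included 6 Zscan4 genes, the Gm8300 gene (573, 352 and 368 FPKM in KO 2-cell and 0 in all 3 KO PN5 libraries, against 245, 134 and 218 FPKM in WT 2-cell libraries), AF067061 and Tcstv3. The smaller ones, named like Tcstv3 after their values were seen, included Trim43a and Trim43b, members of a tripartite motif family. Trim43b averaged 62.9 ± 22.3 FPKM in KO 2-cell libraries and 0.0367 ± 0.0321 FPKM in KO PN5 libraries, against 327 ± 54.8 FPKM in WT 2-cell libraries (SD, n = 3 each). Its change of 5.89 was -2.37 relative to WT (adjusted p = 2.79e-04), and reads of Trim43, Tdpoz, Usp17l and Zscan4 genes may be shared among near-identical copies.

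The Obox homeobox genes, which encode factors that act in mouse genome activation, were near 0 at PN5 for Obox3, Obox6 and Obox8 and already abundant there for the others. All 7 were tested and called in KO, with 4 higher and 3 lower. Obox8 was listed at 0 in all PN5 libraries and stood at 34.2, 17.8 and 12.7 FPKM in KO 2-cell libraries, against 298, 216 and 206 FPKM in WT 2-cell libraries. All KO libraries lay far below all WT libraries. Obox6, named after its values were seen, stood at 106, 21.1 and 44.01 FPKM in KO 2-cell and 0, 0 and 0.0763 FPKM in KO PN5 libraries, against 615, 554 and 427 FPKM in WT 2-cell libraries. The KO change was thus called higher for both and called short of WT for both, by differences of -3.51 (SE 0.41, adjusted p = 1.18e-04) and -3.42 (SE 0.59, adjusted p = 8.09e-04). Obox3 rose by 4.09 in KO and 5.30 in WT, a difference called as deposited (-1.22) but not after median-of-ratios scaling (-0.92).

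Of the Obox messages already abundant at PN5, Obox1, Obox2 and Obox7 were lower at the 2-cell stage in KO and Obox5 was higher as deposited. Obox2 stood at 253, 334 and 339 FPKM in KO 2-cell libraries and 2841, 2627 and 2873 FPKM in KO PN5 libraries, against 105, 133 and 168 FPKM in WT 2-cell and 6084, 3569 and 2669 FPKM in WT PN5 libraries. KO libraries at the 2-cell stage lay below all PN5 libraries and above all WT 2-cell libraries, and the KO fall was smaller than that of WT (difference 1.67, SE 0.39, adjusted p = 0.0042). Obox1, named after its values were seen like Obox7 and Obox5, changed by -1.16 in KO and -3.80 in WT. Obox7 changed by -0.65 in KO and -3.11 in WT. Obox5 changed by 1.07 in KO and -1.58 in WT, and stood at 2000.2 ± 729.9 FPKM in KO 2-cell and 925 ± 259 FPKM in KO PN5 libraries (SD, n = 3 each). The KO rise of Obox5 was not called after median-of-ratios scaling (0.82), while its difference from WT was called on all 3 scales.

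**Figure D2:**
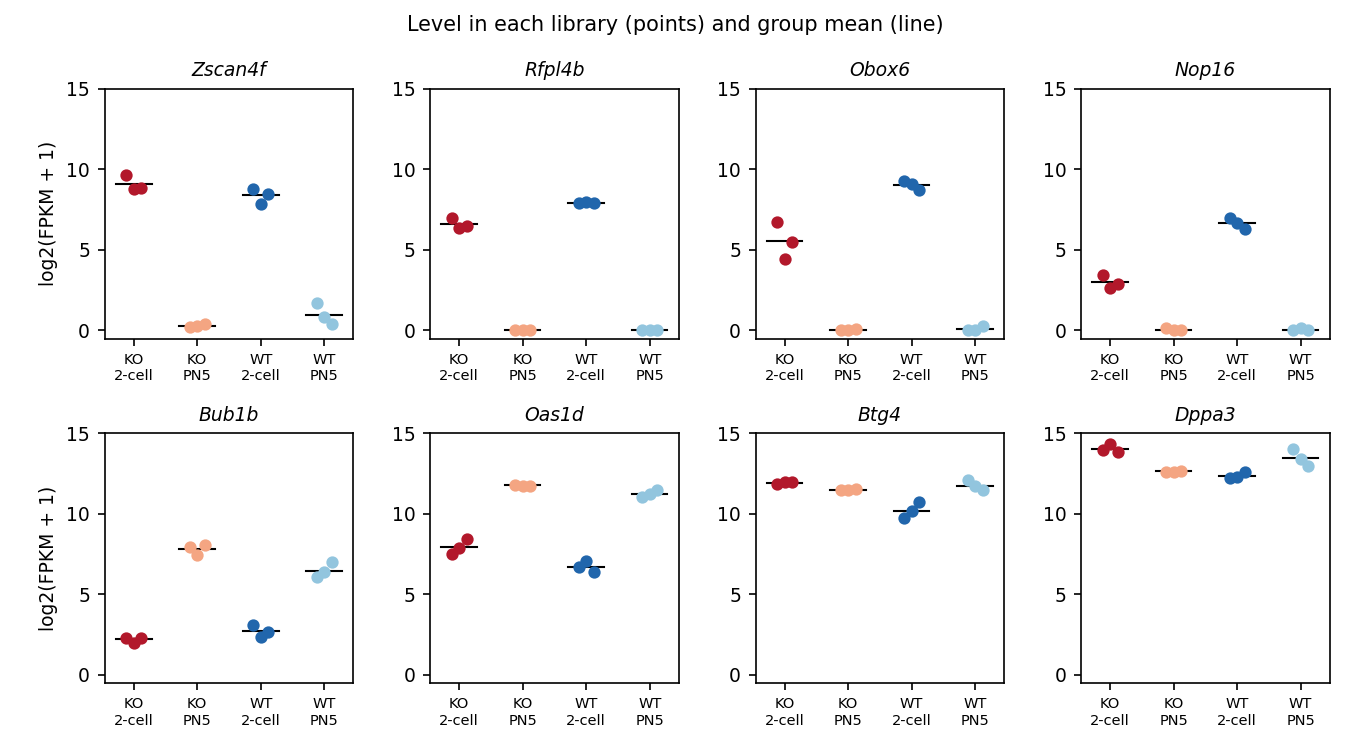
Points are single libraries and lines are group means of log2(FPKM + 1), with groups in the order KO 2-cell, KO PN5, WT 2-cell and WT PN5, 3 libraries each. Zscan4f, Rfpl4b, Obox6 and Nop16 rise in both genotypes, with KO 2-cell libraries above WT for Zscan4f in the mean and below WT for the other 3; Bub1b and Oas1d fall in both, while Btg4 and Dppa3 are lower at the 2-cell stage in WT and not in KO on this scale (Btg4 is lower in KO in TPM).

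A count that rests on no model was taken of genes that went from near 0 to clear presence. In KO, 429 genes were under 0.5 FPKM in every PN5 library and at 5 FPKM or more in every 2-cell library, of which 215 were protein coding and 138 pseudogenes. In WT 675 genes met the same rule, 425 of them protein coding and 146 pseudogenes. Both lists held 201 genes, which was 46.9% of the KO list and 29.8% of the WT list. Of the 474 genes on the WT list alone, 407 still averaged at least 1 FPKM in KO 2-cell embryos and 67 did not. Of the 228 on the KO list alone, 138 missed the WT list only because a WT PN5 library held 0.5 FPKM or more, 61 only because a WT 2-cell library was under 5 FPKM, and 29 for both reasons. For 78 of the 138, WT PN5 replicate 1 was the sole WT PN5 library at 0.5 FPKM or more.

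Part of what WT embryos activated was activated in KO, and the KO change was called smaller for most of the WT set. WT embryos raised 5762 genes by at least 2-fold (43.0% of those tested). Of these, KO embryos raised 2813 (48.8%), lowered 160 and left 714 without a call, and 2075 were under the filter in KO. The KO change was called smaller than the WT change for 3566 (61.9%) and larger for 151, with genes under the KO filter included. Among the 2813 raised in both, it was called smaller for 1150 and larger for 151, and 1512 had no call on the difference. Among the 3687 tested in both, the median ratio of the KO to the WT change was 0.59 (interquartile range 0.30 to 0.88). The WT libraries that chose these genes also enter this ratio and the test of the difference, so both are descriptions and lean towards a smaller KO change. Chosen the other way, the 3641 genes that KO raised by at least 2-fold included 2495 raised in WT (68.5%), and the median ratio of the WT to the KO change was 1.02. Without WT PN5 replicate 1 the set held 5626 genes, KO raised 50.6% of them and fell short for 59.0%.

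The strongest activation in WT was most often present in KO. Of genes raised by 1 to 2 in WT, on the log2 scale, KO raised 31.0%, of those raised by 2 to 3 it raised 50.0%, of those raised by 3 to 5 it raised 81.6%, and of the 278 raised by 5 or more it raised 97.1%. Genes under the KO filter count as not raised in these shares, and they were 1282, 623, 163 and 7 of the classes. Of the genes tested in KO, 57.1, 81.0, 96.4 and 99.6% were raised, so the filter made part of the gradient. The median ratio of the changes in these classes was 0.50, 0.56, 0.61 and 0.79. The KO change was still called short for 57.9% of the 278. The median level in KO 2-cell embryos ran from 25.9 to 34.4% of the WT 2-cell level across the 4 classes. Among genes raised by at least 3 in WT, the ratio lay closest to 1 for Mir491 (0.99), Mt1 (0.99), the homeobox gene Lmx1a (0.98), Slc35e3 (1.02), the ribosomal stalk protein gene Rplp0 (0.98) and Zfp54 (1.02). For Mt1, however, WT 2-cell libraries held 313.5, 232.6 and 334.3 FPKM, all above the KO 2-cell libraries. Its WT PN5 level was 6.12 FPKM in replicate 1, against 0.2398 and 0 FPKM in the others. Without that replicate the KO change of Mt1 was called short. Slc35e3 stood at 20.2, 11.1 and 14.7 FPKM in KO 2-cell libraries, against 15.3, 12.7 and 13.3 FPKM in WT 2-cell libraries, and these overlapped.

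**Figure D3:**
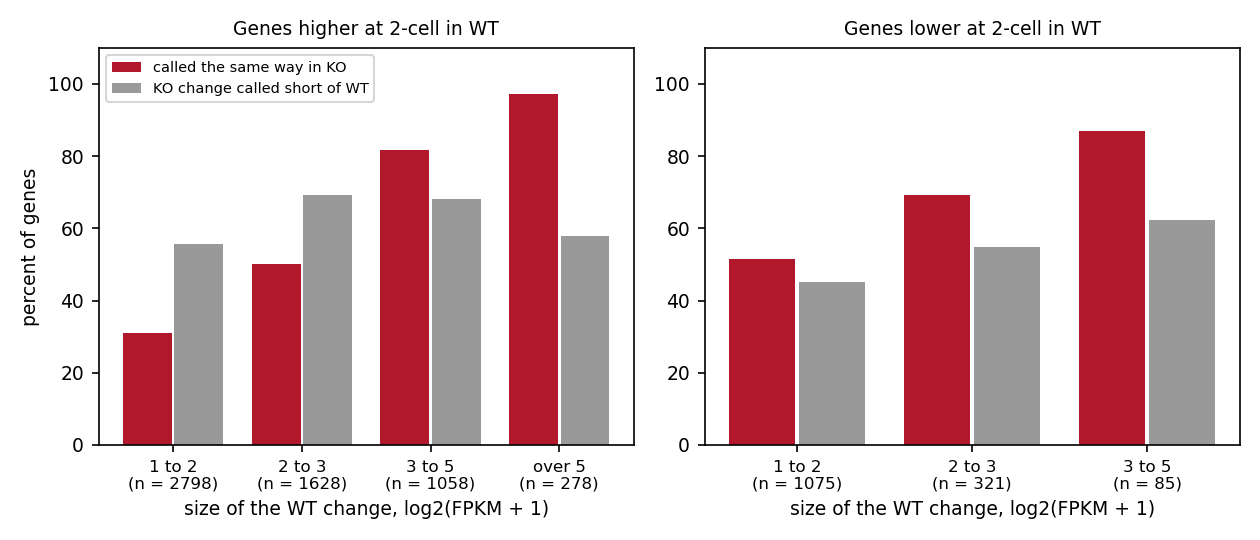
Genes called higher (left) or lower (right) at the 2-cell stage in WT are grouped by the size of the WT change on the log2(FPKM + 1) scale; bars give the percent called the same way in KO and the percent whose KO change was called short of WT. The share called the same way in KO climbs with the WT change to 97.1% for rises of 5 or more and 87.1% for falls of 3 to 5. Genes under the KO filter count as not called, and the share called short climbs for falls as well, to 62.4%.

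The genes furthest short of their WT rise were chosen by the difference of the changes, so a low KO 2-cell level was part of the choice. Stmn3, a stathmin family gene that acts on microtubules, was listed at 0 in all PN5 libraries and stood at 1.44, 1.47 and 2.14 FPKM in KO 2-cell libraries, against 54.6, 41.5 and 41.1 FPKM in WT 2-cell libraries. Its KO rise was called (1.41, SE 0.15, adjusted p = 9.69e-05), and the difference from WT was -4.12 (SE 0.26, adjusted p = 6.76e-06). Cst7, which encodes a cystatin protease inhibitor, stood at 4.07, 0.651 and 4.32 FPKM in KO 2-cell libraries, against 57.5, 61.7 and 53.4 FPKM in WT 2-cell libraries, and it and Arg1 (arginase) and the D5Ertd605e transcript did not pass the filter in KO. Nudt22, a nucleoside diphosphate hydrolase gene, reached 1.34, 4.19 and 2.27 FPKM in KO 2-cell libraries, against 57.9, 42.9 and 47.7 FPKM in WT. Cd3eap encodes a subunit of RNA polymerase I and moved in opposite directions, with 1.01, 0.753 and 1.74 FPKM in KO 2-cell and 8.201, 7.56 and 10.4 FPKM in KO PN5 libraries, against 19.9, 18.3 and 9.82 FPKM in WT 2-cell and 0.755, 2.27 and 4.97 FPKM in WT PN5 libraries. In each genotype the stages did not overlap, and the difference of the changes was -4.51 (SE 0.56, adjusted p = 1.46e-04). Hars, the cytosolic histidyl-tRNA synthetase gene, had a KO change of -0.84 that was not called, and a difference from WT of -3.97 (adjusted p = 5.88e-04). Among these Eif3j2 had the largest difference (-5.83, SE 2.00), but its KO libraries ran from 0 to 33.0 FPKM, it is a near copy of Eif3j1, and the difference was not called without WT PN5 replicate 1.

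Genes for building ribosomes were mostly raised in WT, and the KO change was mostly short of that. The shares over all tested genes were 43.8% higher and 26.8% lower in KO, and 48.0% and 14.8% in WT. Of 48 tested ribosome assembly factors, KO raised 18 and lowered 19, with a median change of -0.14, while WT raised 42 of 54 and lowered 1, with a median of 1.99. The KO balance moved with the scale. It was 14 higher and 22 lower after median-of-ratios scaling and 11 and 26 in TPM. Removing the length trend gave 22 higher and 13 lower. The KO change was called short for 48 of 54 and beyond WT for 0 (also 0 at an unadjusted p under 0.05 in limma), against 31.9% and 13.8% of all genes, with 43 short after median-of-ratios scaling, 49 in TPM and 48 without WT PN5 replicate 1. Nop16, a factor of large subunit assembly, stood at 9.999, 5.25 and 6.48 FPKM in KO 2-cell and 0.0954, 0 and 0 FPKM in KO PN5 libraries, against 126, 99.8 and 79.4 FPKM in WT 2-cell and 0, 0.118 and 0 FPKM in WT PN5 libraries. KO and WT 2-cell libraries did not overlap, and the KO rise was 0.45 of the WT rise on the log2 scale (difference -3.65, SE 0.34, adjusted p = 6.10e-05). Nhp2, of the particles that modify ribosomal RNA, rose to 30.1, 37.7 and 52.9 FPKM in KO 2-cell libraries, against 1.79, 2.64 and 2.68 FPKM in KO PN5 libraries, while WT 2-cell libraries held 193, 179.6 and 151 FPKM. Gnl2, a nucleolar GTPase gene, fell to 2.18, 1.73 and 2.07 FPKM in KO 2-cell libraries, against 11.3, 14.5 and 16.2 FPKM in KO PN5 libraries (change -2.31, adjusted p = 2.10e-05), and its WT change of 0.86 was not called.

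The cytosolic ribosomal proteins themselves were raised in KO. Their counts are read beside 43.8% higher in KO, 48.0% higher in WT and 31.9% short over all tested genes. Of 66 tested, 61 were higher and 0 lower in limma (1 at an unadjusted p under 0.05, 2 in TPM, 1 after median-of-ratios scaling), with a median change of 1.74, and WT raised 72 of 75 with a median of 2.43. The list holds 79 genes, and those not tested in KO were under the filter. Members near 0 at PN5, such as Rps26 at 0.214, 0.201 and 0.2002 FPKM, could pass only through the KO 2-cell libraries. For them a call of higher was largely set by the filter. Their summed level was 1029 to 1286 FPKM in KO 2-cell and 145 to 182 FPKM in KO PN5 libraries, against 2194 to 2702 FPKM in WT 2-cell and 257 to 341 FPKM in WT PN5 libraries. The difference was called short for 35 of 76 and beyond for 1, and the 35 became 23 after median-of-ratios scaling and 40 without WT PN5 replicate 1. Rplp0 stood at 402, 269 and 352 FPKM in KO 2-cell and 26.9, 28.9 and 22.2 FPKM in KO PN5 libraries, against 469, 433 and 356 FPKM in WT 2-cell libraries. Its 2-cell libraries overlapped between the genotypes, unlike those of Rps26, with 16.3, 11.8 and 16.5 FPKM in KO 2-cell and 46.1, 33.8 and 52.2 FPKM in WT 2-cell libraries. Many of these genes have processed pseudogenes, so that their fragments may be divided among copies. They are also short. With the length trend removed 61 were called higher, with a median of 1.69, 60 of them among the 61 called as deposited.

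Subunits of RNA polymerases I and III and their factors were short of WT as well. Across all tested genes 43.8% were higher and 26.8% lower in KO, 48.0% and 14.8% in WT, and 31.9% short. In KO 10 of 18 tested were higher and 6 lower (8 and 7 in TPM), with a median change of 0.64, whereas WT raised 18 of 21 and lowered 0, with a median of 1.58. The KO change was called short for 15 of 21 (14 after median-of-ratios scaling). Znrd1, a small subunit of RNA polymerase I, rose in KO by 3.38 and in WT by 3.96, a difference that was not called. Taf1a, of the polymerase I promoter factor, fell to 25.8, 22.1 and 25.1 FPKM in KO 2-cell libraries, against 76.3, 63.2 and 74.5 FPKM in KO PN5 libraries, while WT held 61.5, 54.1 and 36.03 FPKM and 46.1, 68.5 and 70.2 FPKM at the same stages and was not called. Among subunits of RNA polymerase II, 7 of 11 rose in KO and 1 fell, with 11 of 13 raised in WT and the KO change short for 7 (4 after median-of-ratios scaling). Polr2j stood at 192, 243 and 231 FPKM in KO 2-cell and 82.5, 72.8 and 51.3 FPKM in KO PN5 libraries and rose by more than in WT (difference 1.01, not called in TPM at 0.72). Polr2e rose by 1.41 in KO and 2.29 in WT, short by -0.88 as deposited and not called after median-of-ratios scaling.

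Transcription factors of the embryo were mostly short of WT. Of 18 tested in KO, 7 were higher and 7 lower (8 and 4 with the length trend removed), with a median change of 0.35, and WT raised 16 of 23 with a median of 1.98. The KO change was short for 15 of 24 and beyond WT for 0 (1 at an unadjusted p under 0.05, and 13 and 1 without WT PN5 replicate 1). These stand beside 43.8% higher and 26.8% lower in KO, 48.0% higher in WT and 31.9% short over all tested genes. The KO share of higher factors lay near that of all genes. Klf5, a factor of early lineage choice, stood at 6.73, 5.22 and 5.41 FPKM in KO 2-cell and 0, 0 and 0.0385 FPKM in KO PN5 libraries, against 23.1, 24.1 and 16.02 FPKM in WT 2-cell libraries, which lay above all KO libraries. Dppa4, a chromatin-associated gene of early embryos, stood at 27.2, 16.1 and 14.9 FPKM in KO 2-cell libraries, against 153, 104 and 108 FPKM in WT, with a KO rise of 4.17 and a WT rise of 6.03 (difference -1.86, adjusted p = 0.004, not called in TPM at -1.39). Id2, an inhibitor of basic helix-loop-helix factors, rose by 4.44 in KO and 3.34 in WT, a difference that was not called. In the p53 pathway list 6 of 15 were higher and 5 lower in KO, near the 43.8% and 26.8% of all tested genes, with 13 of 21 higher in WT and 15 of 21 short (9 after median-of-ratios scaling). Cdkn1a, the cell cycle inhibitor p21, reached 1.58, 1.69 and 2.21 FPKM in KO 2-cell libraries, against 10.7, 10.7 and 6.61 FPKM in WT 2-cell libraries, and Gadd45b, a growth arrest gene, reached 11.4, 8.09 and 11.9 FPKM in KO and 38.6, 36.8 and 26.04 FPKM in WT, with the Gadd45b difference (-1.17) not called after median-of-ratios scaling.

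Lists of general upkeep held members called short of WT at a higher share than all genes (31.9%). Their KO counts as deposited are read beside 43.8% higher and 26.8% lower for all genes, and their WT counts beside 48.0% and 14.8%. Spliceosome and SR protein genes were higher for 17 and lower for 18 of 49 in KO, against 26 higher and 8 lower of 50 in WT, with 26 of 51 short. The KO counts became 14 and 21 after median-of-ratios scaling, 12 and 26 in TPM, and 19 and 13 without the length trend. Translation initiation factors were higher for 16 and lower for 11 of 40 in KO (10 and 19 in TPM, 21 and 7 without the length trend), against 25 and 5 of 41 in WT, with 24 of 41 short. Proteasome subunits were higher for 13 and lower for 9 of 33 in KO (6 and 11 in TPM), against 18 and 5 of 34 in WT, with 17 of 34 short. For initiation factors and the proteasome the KO shares as deposited lay near those of all genes, and so did the WT share higher for the proteasome and the spliceosome. Snrpc, of the U1 particle, rose by 4.30 in KO and 4.67 in WT, with no call on the difference. Eif5b, which joins the ribosomal subunits, fell to 6.86, 6.63 and 7.28 FPKM in KO 2-cell libraries, against 43.6, 40.95 and 47.5 FPKM in KO PN5 libraries, with no call in WT (-0.23). Psmd1, a base subunit of the proteasome cap, fell by a change of -3.57 in KO and -1.87 in WT, and the difference was not called.

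Genes of oxidative phosphorylation were mostly higher in both genotypes. Of 66 nuclear members tested 55 were higher and 6 lower in KO (42 and 6 in TPM), with a median change of 1.36, and 44 of 70 were higher and 7 lower in WT, with a median of 1.34. With the length trend removed 51 were higher and 5 lower in KO, with a median of 1.025. The difference was called larger for 17 and smaller for 19 of 71. Shares over all tested genes were 43.8% higher in KO, 48.0% higher in WT, and 13.8% larger and 31.9% smaller for the difference. Ndufb11, a complex I subunit, stood at 62.4, 57.2 and 58.04 FPKM in KO 2-cell and 9.76, 9.66 and 9.26 FPKM in KO PN5 libraries, and Cox8a, a subunit of cytochrome oxidase, at 641, 617 and 616 FPKM and 193, 192 and 156 FPKM. Sdha, the flavoprotein of complex II, went down to 6.63, 5.96 and 9.73 FPKM in KO 2-cell libraries, against 59.5, 57.8 and 54.4 FPKM in KO PN5 libraries. All 13 protein genes of the mitochondrial genome were higher in KO (12 on both other scales), with a median change of 1.78, and 8 of 13 were higher in WT. limma called 0 of the 13 different between the genotypes as deposited, after median-of-ratios scaling and in TPM, and also 0 at an unadjusted p under 0.05. Mitochondrial signal in WT PN5 replicate 1 was near that of 2-cell libraries, with 20340.0 FPKM for mt-Atp6, a subunit of the ATP synthase, against 8928 and 5230.0 FPKM in the other WT PN5 libraries.

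Stress-linked lists gave mixed members. For all tested genes the shares were 43.8% higher and 26.8% lower in KO, 48.0% and 14.8% in WT, and 31.9% short. Antioxidant genes were higher for 10 and lower for 1 of 18 in KO (7 and 3 in TPM), against 9 and 1 of 19 in WT. Their WT share higher lay near that of all genes. Prdx4, a peroxiredoxin of the endoplasmic reticulum, was listed at 0 in KO PN5 libraries and stood at 22.9, 20.6 and 31.4 FPKM in KO 2-cell libraries, against 111, 109 and 155 FPKM in WT 2-cell libraries (difference -1.98). Prdx2 went beyond WT, with 616, 488 and 494 FPKM in KO 2-cell and 104, 113 and 124 FPKM in KO PN5 libraries, and changes of 2.21 in KO and 0.75 in WT (difference 1.46, adjusted p = 9.01e-04). Genes of the unfolded protein response were higher for 7 and lower for 7 of 21 in KO, against 13 and 2 of 21 in WT, with 14 short and 1 beyond. The KO counts became 6 and 9 after median-of-ratios scaling, 4 and 10 in TPM, and 10 and 7 without the length trend. The 1 beyond was Ddit3, the stress factor CHOP, at 46.8, 55.5 and 60.4 FPKM in KO 2-cell and 3.96, 4.26 and 2.23 FPKM in KO PN5 libraries, against 18.6, 23.1 and 23.98 FPKM in WT 2-cell and 6.93, 7.09 and 3.21 FPKM in WT PN5 libraries. The 2-cell libraries of KO lay above all others (difference 1.83, SE 0.39, adjusted p = 0.0028), for the more abundant of 2 gene identifiers with that symbol. Dnajb9, a chaperone cofactor, rose by 5.36 in KO and 6.10 in WT.

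**Figure D4:**
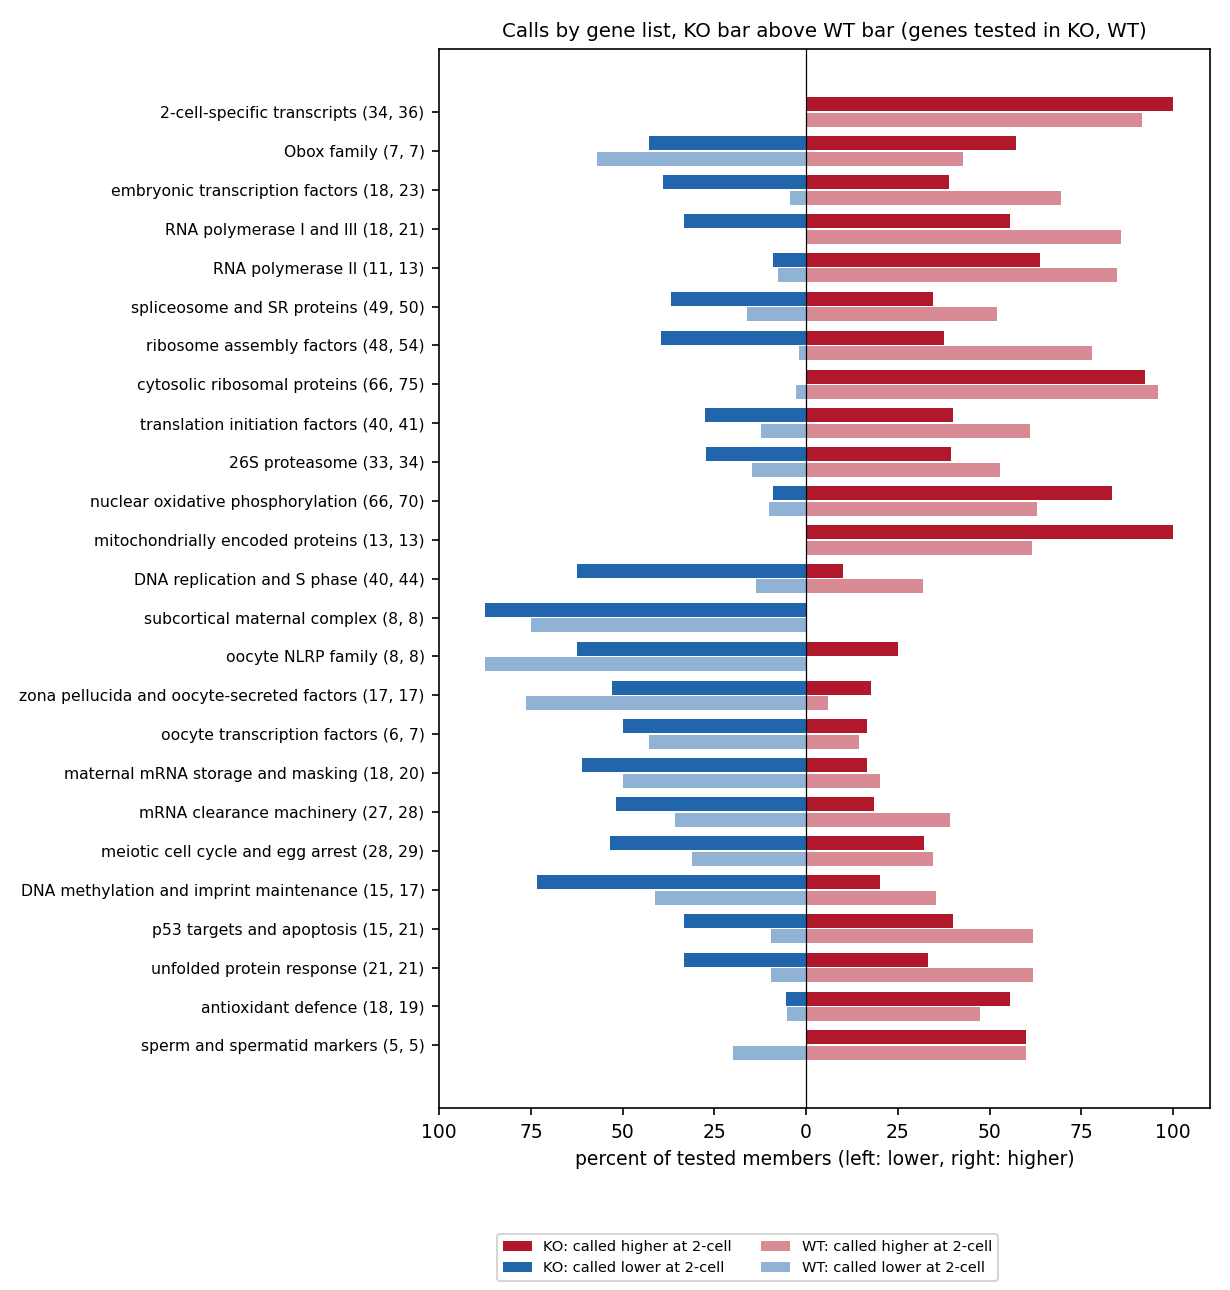
For each gene list with at least 5 members tested in KO, bars show the percent of tested members called higher (right) and lower (left) at the 2-cell stage, with the KO bar above the WT bar and the numbers tested in KO and WT after the name. The 2-cell transcripts reach 100% higher in KO, ribosome assembly factors split between the directions in KO as deposited (they lean to lower in TPM) and lean to higher in WT, and DNA replication genes lean to lower in KO.

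Among transcripts that KO embryos still lost, the 10 largest falls were of Bub1b, Txnip, Nup93, Edrf1, Plat, Zswim3, Tubb3, Oas1d, Copb1 and Csad. Bub1b, a kinase of the spindle checkpoint, fell to 3.92, 2.98 and 3.88 FPKM in KO 2-cell libraries, against 246, 169 and 268 FPKM in KO PN5 libraries (change -5.61, SE 0.20, adjusted p = 7.77e-07). WT fell less, with 7.48, 4.07 and 5.303 FPKM at the 2-cell stage and 65.8, 81.8 and 125 FPKM at PN5 (difference -1.84, adjusted p = 0.0026). All KO libraries were above all WT libraries at PN5 and below them at the 2-cell stage. Oas1d, an oocyte member of the oligoadenylate synthetase family, fell to 183, 231 and 342 FPKM in KO 2-cell libraries, against 3575, 3415 and 3405 FPKM in KO PN5 libraries. WT held 103, 134 and 81.5 FPKM and 2125, 2420.0 and 2810.0 FPKM at these stages, with no call on the difference as deposited. Plat, the tissue plasminogen activator gene, stood at 6.86, 13.2 and 9.68 FPKM in KO 2-cell and 209.8, 122 and 225 FPKM in KO PN5 libraries. Of the 10, 6 had a fall called larger in KO than in WT (5 without WT PN5 replicate 1, where Txnip was not called), and for none of the 10 was it called smaller. For 9 of the 10, all but Copb1, every KO PN5 library was above every WT PN5 library. The 10 were chosen by the size of the KO fall, so a high KO PN5 level was part of the choice. Both counts are descriptions and lean towards a larger KO fall. Zswim3 held 8.85, 7.49 and 6.56 FPKM in KO 2-cell and 137, 126 and 147 FPKM in KO PN5 libraries, against 41.4, 34.6 and 16.9 FPKM in WT 2-cell and 38.2, 58.3 and 95.3 FPKM in WT PN5 libraries.

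Of the 1482 genes that WT lowered by at least 2-fold (11.1% of those tested), KO lowered 850 (57.4%), raised 265 and left 349 without a call, and 18 were under the filter. The KO fall was called short for 714 (48.2%) and beyond WT for 61, with a median ratio of the changes of 0.47 (interquartile range -0.11 to 0.92, 1464 genes). The choice of genes by WT leans this ratio down, as for the activated genes: of the 1803 genes that KO lowered by at least 2-fold, 723 (40.1%) were lowered in WT, and the median ratio of the WT to the KO change was 0.42. Larger WT falls were more often called lower in KO and also more often called short of WT. For WT falls of 1 to 2, 2 to 3 and 3 to 5, 51.4, 69.2 and 87.1% were lowered in KO, and 45.0, 54.8 and 62.4% were short. The median level in KO 2-cell embryos was 183, 235 and 290.0% of the WT 2-cell level in these classes. Without WT PN5 replicate 1 the set held 1758 genes, of which KO lowered 63.8% and fell short for 43.0%. Over the 10671 genes tested in both genotypes, 1032 were lower in both, 1566 lower in KO with no call in WT, 535 lower in WT with no call in KO, 374 higher in KO and lower in WT, and 226 lower in KO and higher in WT.

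The genes that fell furthest short of their WT fall were chosen by the highest difference of the changes, a choice that favours a KO rise. Of these 8, 7 were called higher, not lower, in KO 2-cell embryos. Ninj2, an adhesion molecule gene, stood at 87.5, 138 and 60.4 FPKM in KO 2-cell and 20.8, 25.97 and 19.3 FPKM in KO PN5 libraries, against 2.96, 7.53 and 9.66 FPKM in WT 2-cell and 52.3, 56.8 and 30.4 FPKM in WT PN5 libraries. The stages did not overlap in either genotype, in opposite directions (difference 4.68, SE 0.54, adjusted p = 1.15e-04). Hist2h2aa1, a histone H2A gene, stood at 65.1, 87.6 and 83.1 FPKM in KO 2-cell and 15.3, 12.8 and 13.3 FPKM in KO PN5 libraries, against 11.3, 9.67 and 15.4 FPKM in WT 2-cell and 44.5, 36.9 and 23.6 FPKM in WT PN5 libraries, and it has near-identical copies. Gpx6, Iglc2, Snora47, Iglc3 and Cldn34b2 were also called higher in KO and lower in WT, while Mrpl53 changed by 1.04 in KO without a call. Several of these KO rises were small and tied to the scale: that of Iglc2 was 0.62 as deposited and 0.01 in TPM, that of Cldn34b2 was 0.56 and -0.06, and those of Gpx6 and Snora47 were not called in TPM. These 8 genes are short, with annotated exon lengths from 138 (Snora47) to 1368 bases (Gpx6). The 6 with a fall called larger in KO, given above, ran from 2708 (Zswim3) to 6276 bases (Edrf1). The part of length in these differences was not tested gene by gene. Sptssb, a subunit of the enzyme that starts sphingolipid synthesis, was the remaining gene among the 6 called higher in KO with the highest difference from WT. It stood at 26.5, 28.7 and 16.00 FPKM in KO 2-cell and 1.67, 2.34 and 3.28 FPKM in KO PN5 libraries. WT held 1.700, 3.88 and 2.38 FPKM in 2-cell and 7.642, 5.455 and 4.046 FPKM in PN5 libraries, and was called lower (-0.89, adjusted p = 0.038).

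Messages of the egg's own protein families were more often lower than higher in KO. The shares lower over all tested genes were 26.8% in KO and 14.8% in WT. Genes of the subcortical maternal complex were lower for 7 of 8 in KO and 6 of 8 in WT, with medians of -1.01 and -1.83, and the KO fall was short for 2 (4 without WT PN5 replicate 1 or after median-of-ratios scaling). Padi6, a component of the egg's cytoplasmic lattices, fell to 32.4, 31.97 and 35.7 FPKM in KO 2-cell libraries, against 199, 198 and 165 FPKM in KO PN5 libraries. Zbed3 fell to 1183, 1471 and 1806 FPKM in KO 2-cell libraries, against 2814, 3247 and 3280.0 FPKM, and WT 2-cell libraries held 321, 636 and 339 FPKM, all below the KO libraries, while the difference of the changes was not called as deposited and was called higher after median-of-ratios scaling and without WT PN5 replicate 1. Ooep, a small subunit of the complex named after its values were seen, averaged 133 ± 75.5 FPKM in KO 2-cell and 155 ± 33.9 FPKM in KO PN5 libraries, against 24.1 ± 13.1 FPKM in WT 2-cell and 235 ± 68.5 FPKM in WT PN5 libraries (SD, n = 3 each). Its KO change was not called (-0.34), and its difference from WT was 2.96 (adjusted p = 0.0017).

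Oocyte genes of the Nlrp4 and Nlrp9 groups were lower for 5 and higher for 2 of 8 in KO (6 and 1 after median-of-ratios scaling, 6 and 0 in TPM, 4 and 2 with the length trend removed), while 7 of 8 were lower in WT. Across all tested genes 26.8% were lower in KO and 14.8% in WT. The KO change was called higher than that of WT for 13.8% of all genes and lower for 31.9%. The KO fall was short for 7 of 8, and it was larger than in WT for 0, also at an unadjusted p under 0.05 (short for 5 in TPM, 6 without WT PN5 replicate 1). Nlrp4a stood at 63.4, 80.5 and 91.95 FPKM in KO 2-cell and 286, 285 and 329 FPKM in KO PN5 libraries, against 19.8, 26.4 and 29.6 FPKM in WT 2-cell and 209.8, 271 and 319.9 FPKM in WT PN5 libraries. PN5 libraries of the genotypes overlapped, and 2-cell libraries did not (difference 1.41, SE 0.30, adjusted p = 0.0027). Zona pellucida and oocyte-secreted genes were lower for 9 and higher for 3 of 17 in KO (8 and 3 with the length trend removed), against 13 and 1 of 17 in WT, with the KO change called higher than that of WT for 9 and lower for 2. Gdf9, a growth factor the oocyte sends to its follicle cells, fell to 173, 227 and 194 FPKM in KO 2-cell libraries, against 1872, 1247 and 1740.0 FPKM in KO PN5 libraries (WT change -4.01, difference not called). Astl, the protease that cuts the zona after fertilisation, fell to 1.19, 1.43 and 1.54 FPKM in KO 2-cell libraries, against 19.3, 15.03 and 16.9 FPKM. Of oocyte transcription factor genes 3 of 6 were lower in KO, among them Nobox (-1.21), and 1 was higher, Taf4b (0.83, not called in TPM). With the length trend removed 3 of these factors were lower and 2 higher.

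Storage factors of maternal messages were more often lower than higher in both genotypes. For all tested genes the shares were 43.8% higher and 26.8% lower in KO, and 48.0% and 14.8% in WT. The difference was called higher for 13.8% of all genes and lower for 31.9%. In KO 11 of 18 were lower and 3 higher, in WT 10 of 20 were lower and 4 higher, and the KO change was called higher than that of WT for 2 and lower for 4 of 20. Zar1, an RNA-binding protein that holds maternal messages in store, fell to 9.57, 14.8 and 10.8 FPKM in KO 2-cell libraries, against 138, 144 and 115 FPKM in KO PN5 libraries, and Cpeb1, which binds cytoplasmic polyadenylation elements, to 1.64, 2.58 and 3.01 FPKM, against 21.4, 19.7 and 17.9 FPKM. Genes of the clearance machinery were lower for 14 and higher for 5 of 27 in KO, but with the length trend removed 7 were lower and 12 higher. Edc4, a decapping scaffold, fell to 0.444, 0.273 and 1.31 FPKM in KO 2-cell libraries, against 18.3, 19.7 and 16.1 FPKM in KO PN5 libraries. Tob1, which recruits deadenylases, rose to 10.4, 5.83 and 7.71 FPKM in KO 2-cell libraries, against 0.192, 0.225 and 0.224 FPKM in KO PN5 libraries, while WT 2-cell libraries held 22.98, 34.3 and 29.3 FPKM. Btg4, the adaptor that brings the CCR4-NOT deadenylase to maternal messages, was named after its values were seen, and stood at 3685, 3932 and 4059 FPKM in KO 2-cell and 2893, 2854 and 2964 FPKM in KO PN5 libraries, against 835, 1152 and 1664 FPKM in WT 2-cell and 4316, 3334 and 2816 FPKM in WT PN5 libraries. Its KO change was 0.42 as deposited, 0.17 after median-of-ratios scaling (not called) and -0.21 in TPM (called lower), so no direction in KO is given. Its difference from WT, 1.97 (SE 0.33, adjusted p = 6.93e-04), was called on all 3 scales.

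DNA methylation and imprint genes were lower for 11 and higher for 3 of 15 in KO, against 7 and 6 of 17 in WT. With the length trend removed 8 were lower and 3 higher in KO. The KO change was called higher than that of WT for 1 of 18 and lower for 8 (6 after median-of-ratios scaling, 5 without WT PN5 replicate 1). Across all tested genes 26.8% were lower in KO and 14.8% in WT, and the difference was called higher for 13.8% and lower for 31.9%. Dppa3, the maternal protector of DNA methylation also called Stella, was the 1 higher. It averaged 16965 ± 3122 FPKM in KO 2-cell and 6323 ± 208 FPKM in KO PN5 libraries, against 5303 ± 804 FPKM in WT 2-cell and 11706 ± 4361 FPKM in WT PN5 libraries (SD, n = 3 each). All KO 2-cell libraries lay above all KO PN5 libraries (change 1.41, adjusted p = 4.90e-05), with a fall in WT (-1.09, adjusted p = 0.019) and a difference of 2.49 (SE 0.35, adjusted p = 2.81e-04). Dnmt1, the maintenance methyltransferase, fell to 1.79, 3.94 and 4.19 FPKM in KO 2-cell libraries, against 43.9, 40.5 and 44.4 FPKM in KO PN5 libraries. Trim28, the corepressor that guards imprints, fell to 2.82, 2.28 and 2.47 FPKM in KO 2-cell libraries, against 17.5, 12.7 and 15.8 FPKM, and its WT change of 0.47 was not called (difference -2.67, adjusted p = 0.001). Bcl2l10, an anti-apoptotic oocyte gene named after its values were seen, averaged 5237 ± 1073 FPKM in KO 2-cell and 12035 ± 65.9 FPKM in KO PN5 libraries, against 725 ± 225 FPKM in WT 2-cell libraries (SD, n = 3 each), with changes of -1.22 in KO and -3.94 in WT.

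Genes of DNA replication were mostly lower in KO. The counts here are read beside 43.8% higher and 26.8% lower in KO, and 48.0% and 14.8% in WT, over all tested genes. The difference was called lower for 31.9% of all genes. Of 40 DNA replication genes tested, 25 were lower and 4 higher in KO, with a median change of -0.80, against 6 lower and 14 higher of 44 in WT, with a median of 0.26, and the KO change was called lower than that of WT for 24 of 44 and higher for 1 (21 lower after median-of-ratios scaling). Mcm7, a subunit of the replicative helicase, fell to 2.201, 2.801 and 2.495 FPKM in KO 2-cell libraries, against 21.8, 24.3 and 20.3 FPKM in KO PN5 libraries, while WT held 10.7, 9.41 and 5.19 FPKM and 4.38, 9.37 and 18.8 FPKM and was not called (difference -2.54, SE 0.55, adjusted p = 0.0028). Mcm4 fell to 6.497, 6.07 and 12.2 FPKM in KO 2-cell libraries, against 104, 93.4 and 102 FPKM, and Prim2, of the primase, to 1.36, 2.61 and 2.35 FPKM, against 28.8, 21.7 and 26.3 FPKM. Of 28 genes of the meiotic cycle and egg arrest, 15 were lower and 9 higher in KO (13 and 11 with the length trend removed), against 9 and 10 of 29 in WT. Aurkc, the meiotic Aurora kinase, fell to 55.5, 55.2 and 56.8 FPKM in KO 2-cell libraries, against 206, 169 and 173 FPKM in KO PN5 libraries, with a larger fall in WT (difference 1.04, not called in TPM at 0.76). With the length trend removed 22 replication genes were lower and 7 higher.

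Markers of other cells were near 0 with a few exceptions. Of 24 granulosa and cumulus markers 3 were tested in KO, 10 were listed at 0 in every KO 2-cell library and 15 in every KO PN5 library, and the summed level was 8.79 to 14.2 FPKM in KO 2-cell and 15.2 to 16.6 FPKM in KO PN5 libraries. Cyp19a1 fell to 2.04, 2.496 and 3.599 FPKM in KO 2-cell libraries, against 15.6, 13.8 and 13.8 FPKM, and Tnfaip6 rose to 4.99, 7.05 and 1.64 FPKM, against 0, 0.121 and 0.0599 FPKM. Foxl2, Fshr and Amhr2 belong to this list and did not pass the filter. Of 18 sperm and spermatid markers 5 were tested, 3 were higher, 5 were listed at 0 in every KO 2-cell library and 11 in every KO PN5 library, and the sum was 30.1 to 36.5 FPKM in KO 2-cell and 12.7 to 15.7 FPKM in KO PN5 libraries. Of 15 blood, stroma and oviduct markers 3 were tested, and Hba-a1, an alpha globin gene, stood at 19.7, 11.4 and 16.8 FPKM in KO 2-cell and 0, 0.0865 and 0 FPKM in KO PN5 libraries, against 74.8, 45.96 and 42.9 FPKM in WT 2-cell libraries, with 9 markers of that list at 0 at both KO stages. The part of other cells in the changes above was not tested.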

How the data were processed

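Libraries of 5 embryos each were made with the SMART-Seq HT kit from oocytes or embryos in lysis buffer, per the labels' protocols. FPKM values per gene were deposited by the authors, from StringTie on GRCm38 per the submitters' processing notes; aligner, annotation, strand and filters are not given in the sources used here. The files hold FPKM and no read counts. Depth was estimated from the whole-read steps in low values of single-transcript genes, and gives no interval for single genes. No 2 libraries held identical values. Of 55487 gene IDs, 55227 were matched to symbols in the GENCODE M21 annotation of GRCm38.

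Changes were fitted with limma (3.58.1, R 4.3.3; trend and robust options) on log2(FPKM + 1) for genes with at least 1 FPKM in 3 libraries of a fit, with Benjamini-Hochberg adjustment over all genes tested and a threshold of 0.05. The KO fit held 6 libraries, the WT fit 6, and the difference of the changes, KO minus WT, came from 1 fit of all 12. FPKM as deposited was the main scale. Median-of-ratios scaling, TPM, a removed length trend, another pseudocount (0.1), other filters, a replicate block, all 24 libraries in 1 fit, and each library left out in turn were tried. Tables were joined in Python 3.11.15 with pandas 2.3.3 and numpy 2.4.6, and drawn with matplotlib 3.10.9. The fit was tested on simulated data.

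The 27 gene lists and the comparisons were chosen with earlier results of these data known. List counts are descriptions, read beside all genes tested. Genes were named by a rule. Taken were the 10 genes that rose most and the 10 that fell most in KO whose libraries did not overlap at a mean of 5 FPKM or more, the 8 furthest short of their WT rise and the 8 furthest short of their WT fall. It added the 6 with the highest difference from WT among genes called higher in KO, the 6 with a KO rise closest to that of WT and up to 3 members per list by smallest p. Predicted genes, Rik genes and pseudogenes were left out except as list members. Genes outside the rule are said to be named after their values were seen. Promoter sequence is from RefSeq (GRCm38.p6); a comparison of promoters over all genes activated in WT was void, since 2939 of 3736 protein-coding genes (78.7%) had an entry, under the 80% needed.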

Additional observations from a re-analysis of the deposited data

Results flagged for a closer look

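The results here are those whose KO change differed from the WT change by a test of the difference itself, limma's fit of 12 libraries at an adjusted p under 0.05. That test called 4787 genes lower and 2073 higher in KO, so a call is common and single genes are given as values with no explanation. All values are the KO change minus the WT change in log2(FPKM + 1), and 5 of the genes, Nlrp4b, Txnip, Eif3j2, Zscan4f and Zscan4b, were not called without WT PN5 replicate 1. Some calls also depended on the scale. As given above, those of Prps1, Obox3, Polr2e and Gadd45b were lost after median-of-ratios scaling. In TPM those of Prps1, Dppa4, Polr2j and Aurkc were lost.

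Nlrp14 itself differed by 2.75. Among the largest rises in KO, Zscan4f (1.40), Zscan4d (1.68), Zscan4c (1.36) and Zscan4b (1.00) were higher, as were Gm8300 (1.32) and AF067061 (1.21), while Usp17lb (-1.19), Rfpl4b (-1.31) and Prps1 (-1.52) were lower. Of the homeobox genes, Obox2 was higher (1.67), and Obox8 (-3.51) and Obox3 (-1.22) were lower.

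Genes furthest short of their WT rise were Eif3j2 (-5.83), Cd3eap (-4.51), D5Ertd605e (-4.38), Nudt22 (-4.16), Stmn3 (-4.12), Arg1 (-4.11), Cst7 (-4.04) and Hars (-3.97). Genes furthest short of their WT fall were Ninj2 (4.68), Gpx6 (3.98), Hist2h2aa1 (3.85), Mrpl53 (3.74), Iglc2 (3.65), Snora47 (3.64), Cldn34b2 (3.55) and Iglc3 (3.55), and Sptssb (3.72) was called higher in KO and lower in WT. Falls larger in KO were those of Bub1b (-1.84), Txnip (-1.67), Nup93 (-2.34), Edrf1 (-2.02), Zswim3 (-2.98) and Csad (-1.92).

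For factors and machinery of the embryo, the difference was -1.54 for Klf5, -1.86 for Dppa4, -1.22 for Taf1a, -0.88 for Polr2e, 1.01 for Polr2j and -1.75 for Snrpd2, a core spliceosome protein gene. In ribosome building and translation it was -1.63 for Nhp2, -3.17 for Gnl2, -3.65 for Nop16, -1.21 for Rps26, -2.27 for Eif5b, 1.01 for Eif2b1 and 1.56 for Eif1, both initiation factor genes. It was 1.08 for Cox8a, -2.54 for Mcm7, -2.30 for Prim2 and -2.18 for Mcm4.

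In the lists on maternal messages and their storage and clearance, meiosis and DNA methylation, the difference was 0.92 for Nlrp4b, 1.41 for Nlrp4a, 1.15 for Nlrp4g, -1.11 for Taf4b, -1.74 for Tob1, which was near 0 at PN5 and rose in both genotypes, 1.04 for Aurkc, -2.67 for Trim28 and 2.49 for Dppa3. Among stress-linked genes it was -1.17 for Gadd45b, -1.57 for Mdm2, the ubiquitin ligase of p53, -1.89 for Cdkn1a, -2.24 for Dnajc3, 1.83 for Ddit3, -1.98 for Prdx4 and 1.46 for Prdx2. Markers of other cells differed by 1.22 for Cyp19a1, -2.40 for Tnfaip6, -1.56 for Hba-a1 and -1.60 for Hba-a2.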

How the results depend on the processing

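With a mean of at least 5 FPKM required, fewer genes were tested, and counts were 2447 higher and 1700 lower in KO, 2818 higher in WT, and 1289 higher and 1603 lower for the difference. After median-of-ratios scaling 3154 genes were lower in WT and 2546 counted as cleared, and 6 genes in KO were emptied, under 0.5 FPKM in every 2-cell and at 5 or more in every PN5 library, against 3 as deposited; the cause was not tested. A WT change of at least 2 left 2964 activated and 407 cleared genes. Leaving out each library in turn gave 4572 to 4860 genes higher and 2708 to 3003 lower in KO, 5822 to 6450 and 1484 to 2347 in WT, 1734 to 2161 and 4090 to 5217 for the difference, and 3 to 12 emptied genes in KO, 12 of them without KO 2-cell replicate 3 and 5 without KO 2-cell replicate 2 or without KO PN5 replicate 2. The share of activated genes raised in KO was 46.7 to 50.6%, and that of cleared genes lowered in KO 50.6 to 63.8%, over these 12 settings.

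Of 115 named genes in the KO fit, 111 kept their direction and call after median-of-ratios scaling (Iglc2, Cldn34b2 and Kitl lost theirs, Hars gained one) and 107 in TPM, where 6 lost theirs, Hars gained one and Cldn34b2 changed direction (-0.0602). Eif3j2, not called in KO (-0.62), changed direction without single libraries (-2.31 to 0.230, among them 0.0128). Whether the replicate numbers pair the libraries is not known from the labels. Deviations from the group mean of same-numbered 2-cell and PN5 libraries correlated at -0.01, 0.06 and 0.06 in KO and -0.11, 0.08 and -0.39 in WT. Other pairs ran from -0.08 to 0.02 in KO and from -0.31 to 0.37 in WT. With 3 libraries a group these values cannot decide whether the libraries are paired. With a replicate block, 4959 genes were higher and 2969 lower in KO, 6117 and 1730 in WT, and 2014 and 4579 for the difference, and of the 115 named genes only Mrpl53 changed its call, gaining one. Depth of 7.65 to 11.4 M fragments and 3 libraries a group limit genes near 1 FPKM.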

Other observations

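The genes described here were chosen after their values were seen, and the near-identical copies among them make the division of fragments uncertain. Of the 228 genes that went from under 0.5 FPKM to 5 FPKM or more in KO alone, the highest in KO 2-cell embryos were predicted genes. Gm8332 stood at 1770.0, 1232 and 1419 FPKM in KO 2-cell libraries, against 726, 458 and 790.2 FPKM in WT 2-cell libraries, and missed the WT list through WT PN5 replicate 1, at 15.02 FPKM, while the other WT PN5 libraries held 0.2499 and 0.215 FPKM. Gm21936 stood at 1507, 1090.0 and 997 FPKM in KO 2-cell libraries, against 514, 356 and 471 FPKM in WT 2-cell libraries. For both genes every KO 2-cell library lay above every WT 2-cell library.

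The reverse pattern, from 5 FPKM or more in every PN5 library to under 0.5 FPKM in every 2-cell library, was met by 3 genes in KO and 1 in WT, with 0 shared. Trim11, a ubiquitin ligase gene, held 0.259, 0.282 and 0.318 FPKM in KO 2-cell libraries and 13.7, 12.8 and 11.8 FPKM in KO PN5 libraries. Abcg1, a sterol transporter gene, held 0.316, 0.1999 and 0.306 FPKM in KO 2-cell libraries and 5.59, 5.203 and 5.41 FPKM in KO PN5 libraries. Zfp866, a zinc finger gene, held 0, 0.179 and 0.191 FPKM in KO 2-cell libraries and 14.6, 10.5 and 15.7 FPKM in KO PN5 libraries. In WT PN5 libraries these genes ran from 0.365 to 9.17 FPKM, below every KO PN5 library for Trim11, Abcg1 and Zfp866.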
